A study of Homo sapiens with 12 samples.

Results

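The genes described here encode machinery of the early secretory pathway, which moves newly made proteins into the endoplasmic reticulum (ER) and between the ER and the Golgi. They were picked by name as 40 genes. Of these, 39 were found among the 57773 gene IDs of the deposited table: 8 subunits of the COPI coat, 11 components of the COPII coat and of ER exit sites, 8 members of the p24 family, 7 cargo and retrieval receptors, and 5 components of the ER translocation channel. SEC22B, a SNARE of ER-Golgi transport, was not matched by its annotated ID and was not analysed here. The rule that lists them uses gene names and no measured value, although it was written with earlier results of these data known.

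RNA was sequenced from HEK293 cells, a human embryonic kidney line, and from the extracellular vesicles (EVs) recovered from their medium. All 4 groups were transfected for 48 h, in medium with 10% serum, with vectors labelled 4EC1, whose label names eGFP, EIF4E, YTHDF1, GBP1 and CD9, so no group lacks them. Groups were taken from the sample titles, since the labels' protocol text gives the hypoxia chamber step for all samples, normoxia included. In the groups so named, normoxia cells and normoxia EVs are the controls. Hypoxia cells and hypoxia EVs are taken to come from cultures kept for 24 h in a hypoxia chamber. No oxygen level is named in the labels. Each group had 3 libraries. The labels do not say whether these came from separate cultures, and the p-values therefore cover the variation among these libraries alone, which could be technical.

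A protein destined for secretion enters the ER through the SEC61 channel, with SEC62 and SEC63 helping some precursors through. It leaves the ER in vesicles coated with COPII, in which the GTPases SAR1A and SAR1B recruit the inner coat of SEC23 and SEC24 subunits, SEC13 and SEC31A form the outer cage, and SEC16A organises the exit site. COPI vesicles carry receptors and escaped ER residents back, the latter bound to the KDEL receptors, and the p24 (TMED) proteins and the lectins LMAN1 and LMAN2 select cargo. Many of these genes are known targets of the unfolded protein response, whose factors XBP1 and ATF6 bind an element with the letters TGACGTGG.

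That element was searched for, on both strands, in the RefSeq promoter windows (GRCh38.p14), which run from 250 bases before to 50 after each start site and were in the table for 35 of the 39 genes. It was found in 8 of the 35 genes (22.9%), against 0.927% of the 27305 genes with a window and 1.27% of the 9212 of them that code for proteins and average 50 units or more in these cells. The 30 bases around each match are printed 5′ to 3′ on the gene's strand, with the match in capitals (CCACGTCA is the same element on the other strand), because the members' windows held this element more often than those of other genes, a description with no test.

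COPA (chr1:160343227-160343256, minus strand): gagagggtcgcTGACGTGGaggcgtccgaa
COPB1 (chr11:14499841-14499870, minus strand): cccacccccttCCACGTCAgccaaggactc
COPB2, upstream match (chr3:139389825-139389854, minus strand): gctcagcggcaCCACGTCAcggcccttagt
COPB2, match at the start site (chr3:139389632-139389661, minus strand): tcccggaagttCCACGTCAgtcagtctgac
SEC16A (chr9:136484707-136484736, minus strand): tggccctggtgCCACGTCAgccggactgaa
SEC23A (chr14:39103221-39103250, minus strand): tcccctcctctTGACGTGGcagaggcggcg
SEC24A (chr5:134648595-134648624, plus strand): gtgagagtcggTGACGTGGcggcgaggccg
SEC62 (chr3:169966779-169966808, plus strand): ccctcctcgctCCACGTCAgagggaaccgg
KDELR3 (chr22:38468039-38468068, plus strand): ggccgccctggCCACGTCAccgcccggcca

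The 8 genes come from 4 of the 5 groups, with 3 COPI subunits (COPA, COPB1 and COPB2), 3 COPII components (SEC16A, SEC23A and SEC24A), the translocation gene SEC62 and the retrieval receptor KDELR3. No p24 gene with a window held the element. Without its last base (TGACGTG) it was found in 11 of the 35 genes (31.4%, against 2.40% of all genes with a window), with COPE, SEC13 and SEC61A1 added. The core of the element bound by the hypoxia-inducible factors, ACGTG, was in 26 of the 35 genes (74.3%, against 24.9% of all and 33.2% of the expressed coding genes). ACGTG is contained in TGACGTG, so the searches overlap. The alternative core GCGTG was in 22 of the 35 (62.9%, against 40.6% and 60.7%). The longer ER stress elements ERSE and ERSE-II had 0 matches in these windows. They were in 0.0916% and 0.0696% of all genes with a window, too few for 0 among 35 genes to say much. A match describes letters in a window and is not a measured site.

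Depth was 18059381 to 23400813 reads in the cells, 5266244 to 7001767 in normoxia EVs and 3259453 to 6129782 in hypoxia EVs. Values are deposited units, that is reads scaled by one factor per library, and a read was worth between 0.481 and 2.52 units. VEGFA and SLC2A1, an angiogenic factor and a glucose transporter that hypoxia induces, rose by 1.10 and 1.27 on the log2 scale in hypoxia cells, and stood at −0.19 and 0.12 in hypoxia EVs without passing. Of 7 HEK293 markers, 6 were matched and all 6 were detected in every library. The sum of 6 blood cell markers ran from 8.18 to 22.6 units in cells, 42.8 to 139 in normoxia EVs and 151 to 236 in hypoxia EVs, and that of 6 liver and plasma protein genes from 36.0 to 75.7, 99.9 to 342 and 526 to 656. The sum of 4 connective tissue markers was 283 to 394 units in cells, 495 to 789 in normoxia EVs and 755 to 874 in hypoxia EVs. Most of it was COL1A1, averaging 313 and 309 units in normoxia and hypoxia cells and 564 and 670 in normoxia and hypoxia EVs. COL1A2 and DCN were higher in EVs too. LUM went the other way, averaging 22.4 and 14.8 units in cells and 5.01 and 11.9 in EVs. The part of any of these marker sums in the results was not tested. EV libraries also held reads on genes that are nearly silent in the cells (6599 coding genes averaging 20 units or less there). These had 1.91 and 2.41 units per kb of transcript in normoxia and hypoxia cells, 10.4 in normoxia EVs (6.39 to 15.6) and 22.5 in hypoxia EVs (21.8 to 23.3). The density per transcript length is given below beside some of the genes it comes close to. The construct genes EIF4E, YTHDF1 and CD9 took 5.89% to 7.28% of the reads in cells and 19.97% to 24.4% in EVs, which lowers the share left for all other genes.

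Compared per transcript length, the 39 genes covered a wide range of levels in normoxia cells. The lectin LMAN2, the outer coat subunit SEC13, the KDEL receptor KDELR1 and the COPI subunit ARCN1 were the highest, at 106, 100.03, 88.9 and 88.8 RPKM (reads per kb of transcript, scaled to library depth; means of 3 libraries). COPG2, TMED1, SAR1B and TMED7 were the lowest, at 3.87, 4.64, 7.62 and 7.87 RPKM. In hypoxia cells the first 2 were again LMAN2 and SEC13, at 105 and 94.0 RPKM. In EVs the order differed. LMAN2, COPE, SEC13 and TMED9 led in normoxia EVs at 87.6, 70.03, 69.9 and 57.2 RPKM, whereas KDELR1 stood at 16.9 and COPB2, at 81.6 in normoxia cells, stood at 12.6. TMED7 and COPG2 were lowest in both EV groups, at 0.86 and 1.43 RPKM in normoxia EVs. Together the members took up 0.482% ± 0.00428 of all reads after normoxia and 0.471% ± 0.00408 after hypoxia in the cells, but 0.185% ± 0.00551 and 0.181% ± 0.0101 in the EVs (SD, 3 libraries each). With the reads of the construct genes left out, the shares were 0.513%, 0.507%, 0.242% and 0.232%.

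In cells, hypoxia was compared with normoxia to ask which transcripts of the pathway respond to low oxygen. By limma-trend with a Benjamini-Hochberg adjusted p under 0.05, 2 of the 39 genes were higher, 19 were lower and 18 did not pass. Over all 17260 genes tested, 8.01% were higher and 22.4% lower, and among 11195 coding genes averaging 50 units or more in cells 8.19% were higher and 32.7% lower. The members' median log2 fold change was −0.19, against −0.07 over all genes tested and −0.13 over those coding genes. Changes were small: the called genes lay between −0.59 and 0.36. The libraries of the 2 conditions did not overlap for 2 higher and 22 lower members, against 12.7% and 27.6% of all genes. With every library scaled to the same total, the all-gene median moved from −0.07 to 0.06, and the split of members became 4 higher and 5 lower, with 24 below 0 against 34 as deposited (over all genes 2306 and 2038 were called, against 1383 and 3871 as deposited). The members' median less the all-gene median was −0.13 under both scalings.

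The COPII genes held 9 of the 19 falls. Of their 11 members, 9 were lower, SEC24D was higher and SEC16A did not pass (−0.02). SEC24D, a cargo-binding subunit of the inner coat, was at 409, 403 and 424 units in normoxia cells and 553, 488 and 508 in hypoxia cells. Every hypoxia cell library lay above every normoxia cell library. The log2 fold change was 0.32 (SE 0.09, adjusted p = 0.00393, limma). SEC24D kept this call without any one of the 6 libraries, and it was not called after upper quartile scaling (0.14, adjusted p = 0.312). SAR1B, the GTPase that starts COPII assembly and whose loss causes a defect of chylomicron secretion, had the largest fall of the 39. It was at 567, 526 and 563 units in normoxia cells and 376, 425 and 305 in hypoxia cells. The groups did not overlap, and the log2 fold change was −0.59 (SE 0.10, adjusted p = 1.19e-06, limma).

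Its paralogue SAR1A fell from 810.2, 811 and 877 units to 699, 688 and 633 (−0.31, SE 0.08, adjusted p = 0.00132, limma). SEC31A, the rod-forming subunit of the outer cage, fell from 2001, 1905 and 2049.7 units to 1488, 1479.8 and 1678 (−0.36, SE 0.06, adjusted p = 6.09e-06, limma). For both genes all 3 hypoxia values lay under all 3 normoxia values. The other 6 COPII genes that fell were SEC23A, SEC23B, SEC24A, SEC24B, SEC24C and SEC13, the remaining subunits of the inner and outer coats, with log2 fold changes from −0.30 to −0.19. SAR1B (chr5:134601144-134649271, minus strand) and SEC24A (chr5:134648789-134727823, plus strand; both GENCODE 29, GRCh38) overlap over 385 exonic bases on opposite strands. The counter and its strand setting are not named in the labels, so reads of this stretch may have gone to either gene. Both genes fell.

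**Figure D1:**
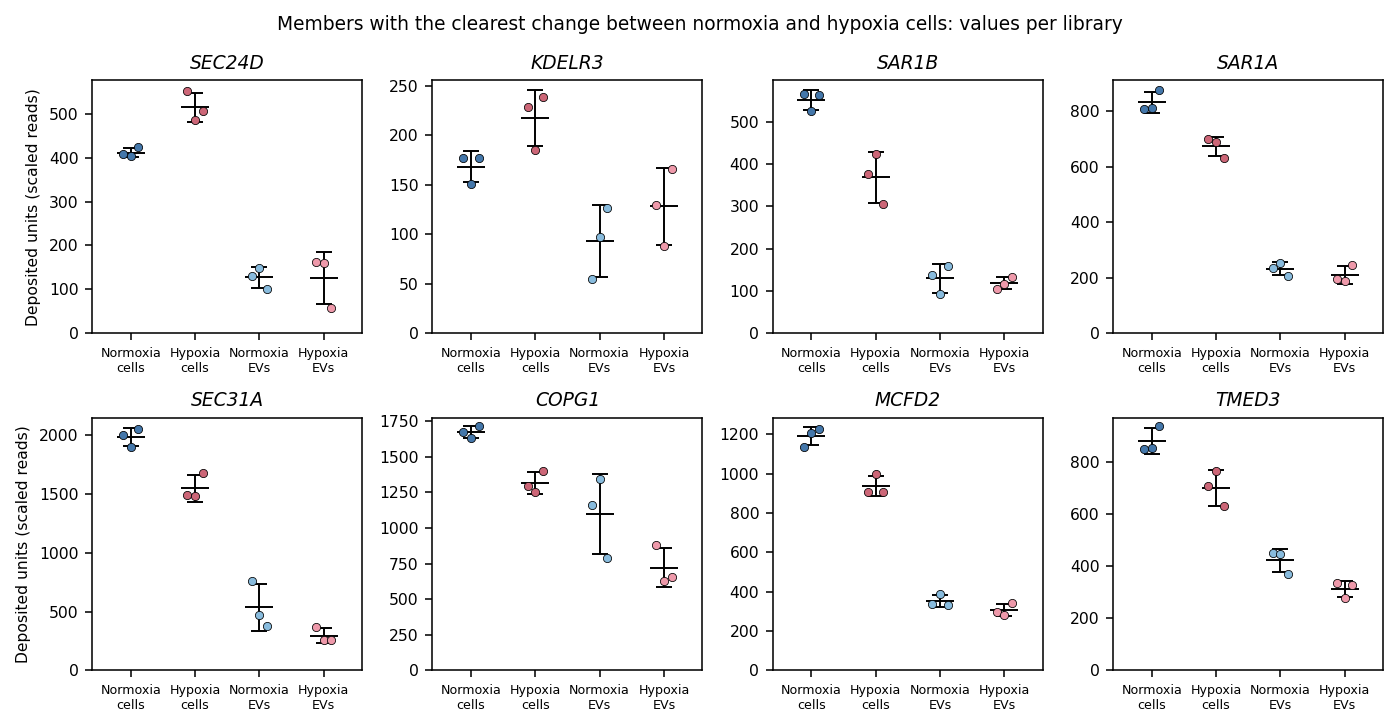
Values per library, in deposited units, of the 8 genes with the clearest change between normoxia and hypoxia cells, in 4 groups of 3 libraries (points; bars show the mean and SD). SEC24D and KDELR3 were higher in hypoxia cells, and SAR1B, SAR1A, SEC31A, COPG1, MCFD2 and TMED3 were lower, with no overlap between the cell groups; in the EV groups SEC31A and TMED3 were apart and the other 6 overlapped between conditions.

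Of the 8 COPI subunits, 5 were lower and none was higher. COPG1, the main gamma subunit, which binds cargo tails, was at 1676, 1631 and 1719 units in normoxia cells and 1295, 1251 and 1400.3 in hypoxia cells. The 2 groups were apart, and the log2 fold change was −0.35 (SE 0.06, adjusted p = 1.50e-05, limma). COPZ1, ARCN1, COPB1 and COPB2 (the zeta, delta, beta and beta′ subunits) fell by 0.31, 0.20, 0.20 and 0.19. COPA and COPE, the alpha and epsilon subunits, stood at −0.04 and 0.07 and did not pass. COPG2, the paralogue of COPG1, stood at −0.32 (adjusted p = 0.133, limma) at a level of 122 to 139 units in normoxia cells.

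Among the p24 genes, 3 of 8 were lower. TMED3 was at 852, 855 and 939 units in normoxia cells and 709, 767 and 631 in hypoxia cells, without overlap (−0.33, SE 0.08, adjusted p = 0.00061, limma). TMED5 and TMED2 fell by 0.27 and 0.21, although 1 hypoxia library of each lay within the normoxia range. TMED1, TMED4, TMED7, TMED9 and TMED10 ran from −0.16 to −0.03 and did not pass.

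The 7 receptors did not move one way. KDELR3, the least abundant of the KDEL receptors, was at 178, 150.5 and 177 units in normoxia cells and 229, 185 and 239 in hypoxia cells. The hypoxia libraries were all above the normoxia libraries, by as little as 185 against 178, and the log2 fold change was 0.36 (SE 0.13, adjusted p = 0.0302, limma). This call was lost without normoxia cell replicate 2, hypoxia cell replicate 1 or hypoxia cell replicate 3 (adjusted p = 0.147, 0.104 and 0.153, limma). MCFD2, which forms the receptor for coagulation factors with LMAN1, was at 1139, 1209.7 and 1225 units in normoxia cells and 908, 998 and 908 in hypoxia cells. Those groups were apart (−0.35, SE 0.07, adjusted p = 7.32e-05, limma), while its partner LMAN1 stood at −0.09 and did not pass. KDELR1 fell by 0.22, and KDELR2, LMAN2 and SURF4, a receptor for soluble cargo, stood at 0.11, −0.14 and −0.03. None of the 5 translocation genes passed: SEC61A1, the pore subunit, SEC61B, SEC61G, SEC62 and SEC63 lay between −0.23 and 0.13.

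The 8 genes with TGACGTGG did not share a direction in hypoxia cells. KDELR3 rose, COPB1, COPB2, SEC23A and SEC24A fell, and COPA, SEC16A and SEC62 did not pass. Their median log2 fold change was −0.15, and that of the 27 members with a window and no match was −0.22, of which 15 fell and none rose.

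The calls in cells depended on scale and tool. Of the 21 genes called, 7 were also called with equal library totals (COPG1, SEC31A, SAR1B, TMED3, MCFD2, SEC24D and KDELR3), and COPE and KDELR2 were then higher as well (0.19 and 0.24). On the recovered reads, edgeR's quasi-likelihood test called 9 lower and 3 higher and DESeq2 8 lower and 3 higher, the added gene being KDELR2 (0.19 in each). In a fit of all 12 libraries, in which cells and EVs share an estimate of spread, 0 of the 21 calls were kept, over a table with 59 higher and 25 lower. KDELR3 was also lost with no filter, and both KDELR3 and SEC24D with upper quartile scaling.

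The EVs were then compared with the cells, over all 12 libraries, to ask how much of the pathway's mRNA is found outside the cells relative to inside. Of the 39 genes, 37 were lower in EVs, TMED1 was higher and COPE did not pass (limma, adjusted p under 0.05). Over 24171 genes tested, 31.8% were lower and 43.1% higher, and among the 11195 coding genes 60.3% were lower and 15.9% higher. The members' median log2 fold change was −1.77, against 0.32 over all genes tested and −0.66 over those coding genes, 17.1% of which lay at or under −1.77. The members' median less the all-gene median was −2.09, and −1.27 with the density over near-silent genes taken off. Every EV library lay under every cell library for 32 members, against 21.3% of all genes, and above it for 0, against 19.8%. A smaller share of EVs holding a transcript and fewer copies per EV cannot be told apart in bulk RNA.

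TMED7, a p24 protein, was the member furthest below its cell level. It was at 276, 315 and 373 units in normoxia cells and 327, 267 and 265 in hypoxia cells. In EVs it was at 45.2, 50.4 and 25.4 units after normoxia and 21.4, 10.7 and 10.1 after hypoxia, on as few as 4 reads in a library. The groups were far apart, and the log2 fold change was −3.67 (SE 0.24, adjusted p = 7.93e-11, limma). These EV values were 1.03 and 0.17 times the units that the density over near-silent genes would give a transcript of its length, so the mean level in EVs was not clear of that density. By library, TMED7 was at 1.88, 1.46 and 0.434 times the density of the same normoxia EV library, and at most 0.261 times in hypoxia EVs. TMED7 shares 935 exonic bases on the same strand with the readthrough gene TMED7-TICAM2.

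KDELR2, a retrieval receptor, was at 888 to 1069.8 units in the 6 cell libraries and 120.2 to 176 in the 6 EV libraries (−2.81, SE 0.12, adjusted p = 4.24e-13, limma). SEC23A, the GTPase-activating subunit of the inner coat, was at 965 to 1335 units in cells and 120.2 to 297 in EVs (−2.77, SE 0.17, adjusted p = 2.83e-11, limma). COPB2 was at 2512 to 3064 units in cells and 346 to 597 in EVs (−2.70, SE 0.10, adjusted p = 6.89e-14, limma). Each of these genes was thus several times lower in every EV library than in any cell library. SEC61G, the smallest subunit of the translocation channel, was at 335 to 474 units in cells and 27.7 to 137 in EVs (−2.70, SE 0.28, adjusted p = 5.51e-08, limma). TMED5 was at 997 to 1471 units in cells and 172 to 285 in EVs (−2.43, SE 0.13, adjusted p = 5.81e-12, limma). In hypoxia EVs, KDELR2, SEC23A and TMED5 were at 2.07, 1.63 and 1.56 times the near-silent density for their length. SAR1B (0.79) and COPG2 (0.30) lay under it there, and in normoxia EVs these 2 genes were at 1.86 and 1.70 times it. For members this close to that density, how much of the EV value came from the transcript itself was not tested.

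**Figure D2:**
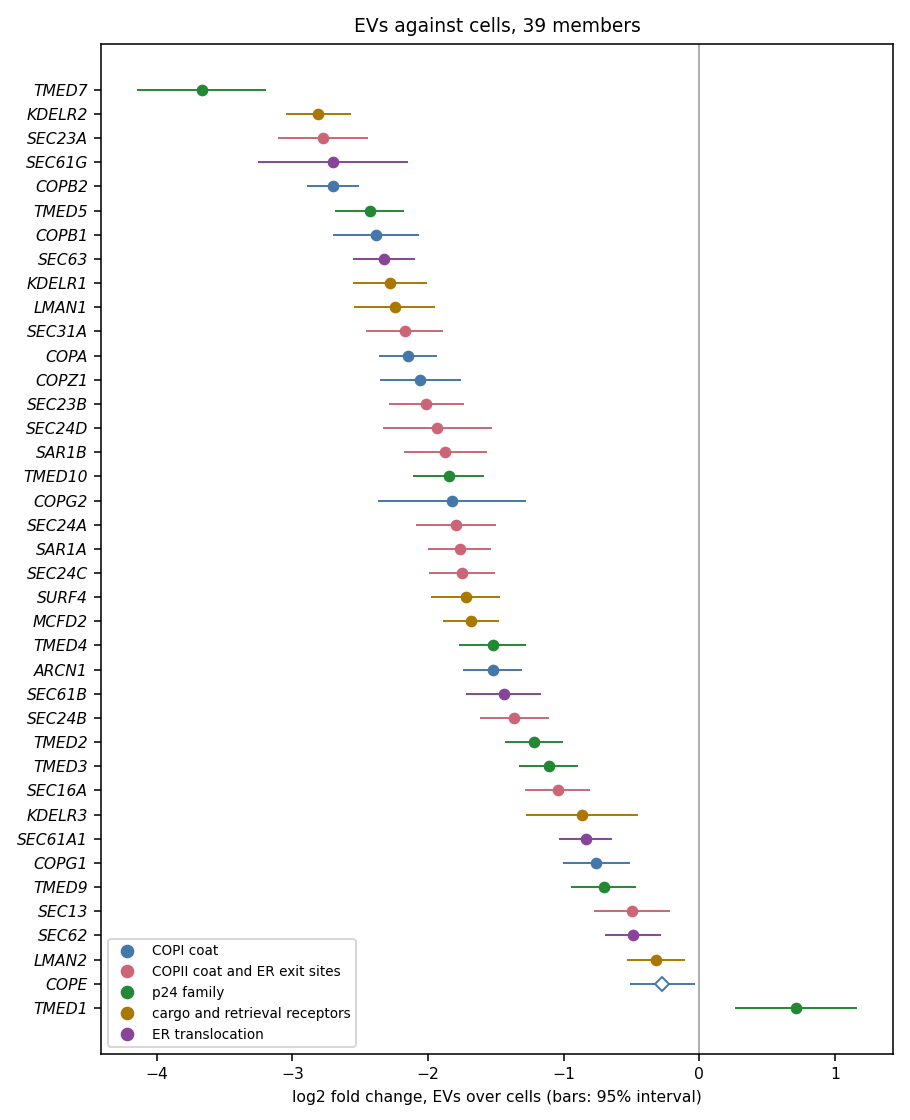
Log2 fold change of EVs over cells for each of the 39 genes, with its 95% interval, in order of size and coloured by group (filled circles passed the test, the open diamond did not). The genes run from TMED7 at −3.67 to TMED1 at 0.71, and 37 lie below 0 with an adjusted p under 0.05.

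Other members stood nearer to their cell level. LMAN2 was at 1805 to 2169 units in cells and 1099.6 to 2277 in EVs, so the libraries overlapped (−0.32, SE 0.11, adjusted p = 0.0114, limma). SEC62, SEC13, TMED9, COPG1, SEC61A1 and KDELR3 fell by 0.49, 0.50, 0.71, 0.76, 0.84 and 0.86. In the normoxia libraries alone LMAN2, SEC62, SEC13 and TMED9 were not called. There SEC62 was at 2109, 2278 and 2399 units in cells and 2705, 2003 and 1835 in EVs. SEC13 was at 1571, 1487 and 1580 units in normoxia cells and 1696, 1319 and 766 in normoxia EVs. COPE, at 828 to 941 units in cells, was at 1129.9, 1077 and 766 in normoxia EVs and 669, 556 and 441 in hypoxia EVs (−0.27, SE 0.12, adjusted p = 0.0516, limma). Its normoxia EV libraries spanned both sides of the cell range, and its hypoxia EV libraries lay below it. TMED1, a p24 gene of low level, was at 54.1 to 80.2 units in cells, 126, 166 and 87.95 in normoxia EVs and 126, 88.3 and 75.7 in hypoxia EVs (0.71, SE 0.23, adjusted p = 0.0086, limma). Only hypoxia EV replicate 3 lay within the cell range. The call for TMED1 was lost with TMM factors (0.32), with the near-silent density taken off (0.39) and in the hypoxia libraries alone (0.56), and its direction turned with upper quartile scaling (−0.31). TMED1 shares 776 exonic bases with DNM2 on the opposite strand, so reads of DNM2 may be among its own.

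By group, the medians of EVs over cells were −1.94 for COPI, −1.80 for COPII, −1.72 for the receptors, −1.44 for translocation and −1.37 for the p24 genes, with a wide spread inside each group. COPI subunits, which enter vesicles as 1 complex, ran from −2.70 (COPB2) to −0.27 (COPE). The partners SEC62 and SEC63 stood at −0.49 and −2.33, and the outer coat partners SEC13 and SEC31A at −0.50 and −2.17. In the normoxia libraries alone 33 members were lower, and in the hypoxia libraries alone 38 (28.5% and 27.9% of all genes tested).

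Members with a GC-poorer coding sequence tended to lie lower in EVs. Across the 39 genes the log2 fold change of EVs over cells ran with the GC content of the coding sequence, with a Pearson r of 0.62 and a Spearman rho of 0.57. Across 11191 coding genes of at least 50 units in cells the same values were 0.55 and 0.57. Genes share libraries and are not independent replicates, so these are descriptions. Under 45% GC, 13 members had a median of −1.87 (all coding genes −1.53), and from 45% to 50%, 12 members had −2.03 (−1.10). From 50% to 55%, 4 members had −1.29 (−0.58), and over 55%, 10 members had −0.87 (−0.04). In each of these 4 ranges the members' median was below that of all coding genes. Members were also more abundant, with a median log2 level in cells of 10.3, against 8.61 for those coding genes. That level ran against the fold change over the coding genes (rho −0.32) and not among members (0.05). Its part in the gaps between members and coding genes was not tested. SEC62 stood high for its GC content, at 41.1% and −0.49, and TMED7 low for its own, at 48.1% and −3.67. The 5′ UTR length of the annotated transcript ran against the fold change among members (rho −0.60) and not over the coding genes (0.03), while transcript length gave −0.30 and −0.07 and coding length −0.01 and 0.09.

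**Figure D3:**
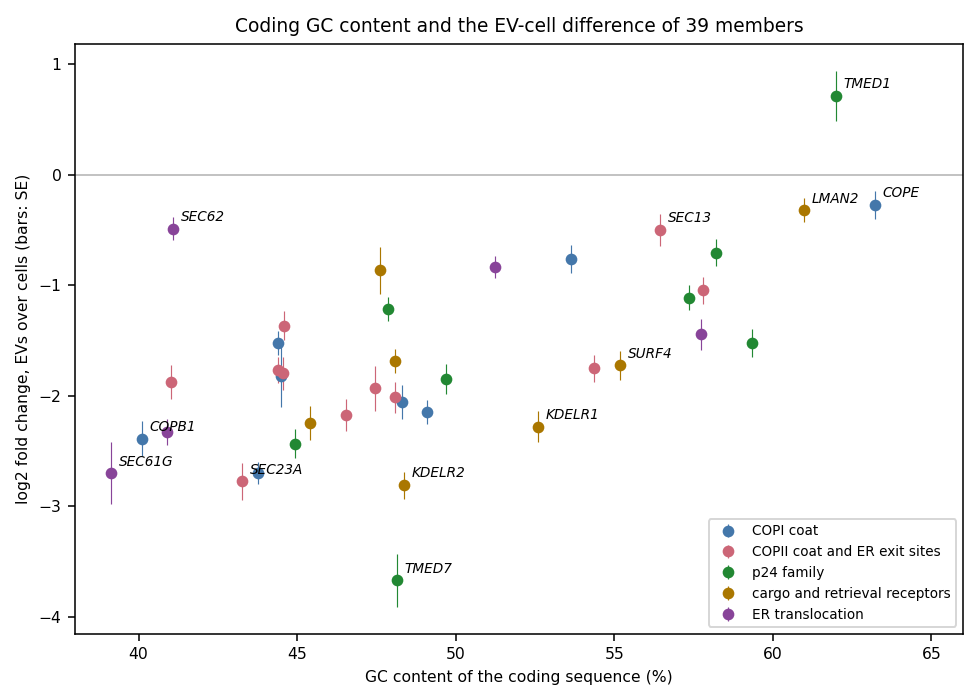
Log2 fold change of EVs over cells (with its SE) against the GC content of the coding sequence, for the 39 genes coloured by group. Over 55% GC, genes run from SURF4 at −1.72 to TMED1 at 0.71, and under 45% from SEC23A at −2.77 to SEC62 at −0.49.

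In EVs, hypoxia was compared with normoxia to ask whether EV RNA carries the response of the pathway. Of the 39 genes, 5 were lower, none was higher and 34 did not pass (limma, adjusted p under 0.05). At an unadjusted p under 0.05, 16 were lower and 0 higher (13.6% and 21.1% of all genes tested). By edgeR and DESeq2 0 were called higher too (3.68% and 5.56% of all genes tested). Over 27904 genes tested 6.62% were lower and 5.68% higher, and over 11185 coding genes of at least 50 units in cells 15.4% were lower and 1.64% higher. The 5 of 39 are 12.8%, near the share of those coding genes. The members' median was −0.54, against 0.60 over all genes tested and −0.39 over those coding genes, and 16 members did not overlap in the lower direction and 0 in the higher (14.5% and 23.4% of all genes).

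TMED2, a p24 protein that binds COPI, was at 1365, 1167 and 1016 units in normoxia EVs and 625, 499 and 562 in hypoxia EVs (−1.07, SE 0.22, adjusted p = 0.0137, limma). SEC62 was at 2705, 2003 and 1835 units and then 1043, 1148 and 1165 (−0.94, SE 0.21, adjusted p = 0.0163, limma). Both genes were clear of overlap, and in cells they were at −0.21 and −0.11. LMAN1, the lectin partner of MCFD2, was at 856, 526 and 367 units and then 247, 298 and 335 (−0.91, SE 0.28, adjusted p = 0.0409, limma). SEC63, a J-domain protein that recruits the chaperone BiP to the channel, was at 756, 602 and 453 units and then 303, 361 and 318 (−0.85, SE 0.25, adjusted p = 0.0347, limma). COPE was at 1129.9, 1077 and 766 units and then 669, 556 and 441 (−0.83, SE 0.24, adjusted p = 0.0301, limma). For these 3 genes too the hypoxia libraries lay under all normoxia libraries, by as little as 335 against 367 for LMAN1. In the hypoxia EV libraries LMAN1 was at 2.05, 2.40 and 2.61 times the near-silent density for its length. SEC63 was at 2.17, 2.50 and 2.13 times it there, and COPE further from it, at 26.9, 21.6 and 16.6 times. Rows named as pseudogenes of SEC63 came to 14.4% of its value in hypoxia EVs, and those of other members to at most 2.82% of theirs.

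The 5 calls rested on single libraries and on scale. No member was called without normoxia EV replicate 2, hypoxia EV replicate 2 or hypoxia EV replicate 3, only 1 without normoxia EV replicate 1 or hypoxia EV replicate 1, and 17 without normoxia EV replicate 3. The calls over all genes moved as well, from 1846 lower to 7 without normoxia EV replicate 2 and to 3934 without normoxia EV replicate 3. That last library also had the highest density over near-silent genes of its group, at 15.6 units per kb. With equal library totals the all-gene median moved from 0.60 to 1.21 and the members' median from −0.54 to 0.03. Only TMED2 was then called (−0.50), with 4404 genes higher and 188 lower over the whole table, against 1586 and 1846 as deposited. The members' median less the all-gene median was −1.14 as deposited and −1.18 with equal totals, and −0.25 with the near-silent density taken off.

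**Figure D4:**
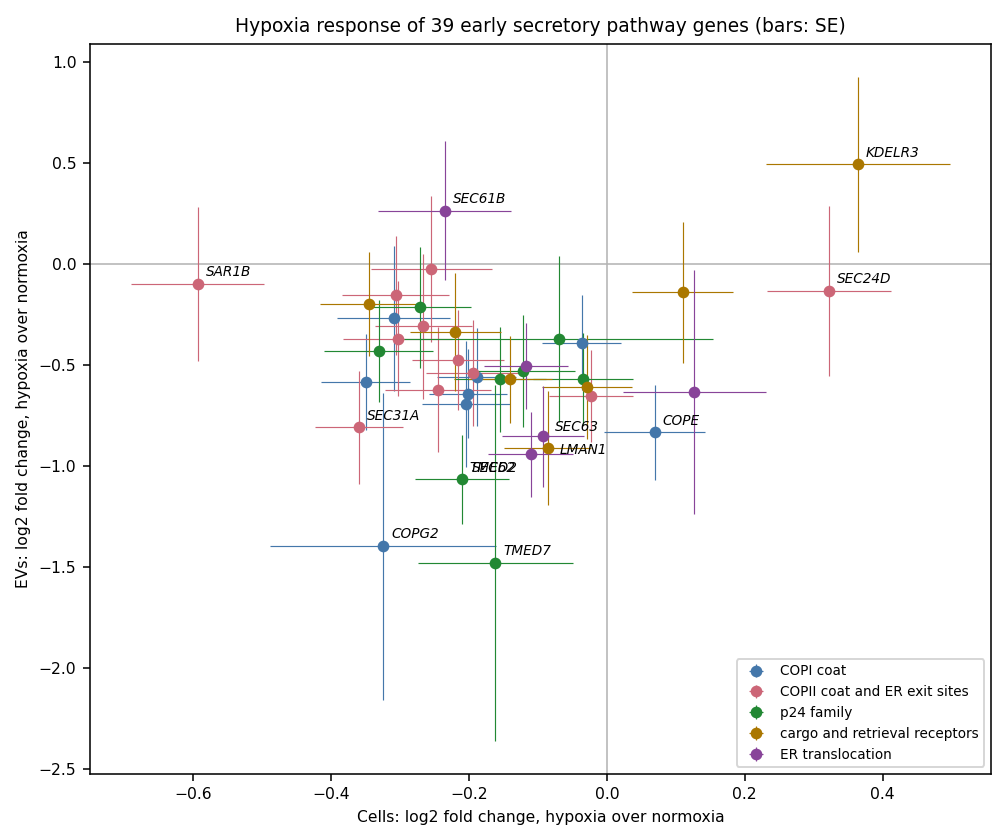
Log2 fold change of hypoxia over normoxia in cells (x axis) and in EVs (y axis) for the 39 genes, with the SE of each, coloured by group. SAR1B, lowest in cells at −0.59, stands at −0.10 in EVs, and TMED2 and SEC62, lower in EVs at −1.07 and −0.94, stand at −0.21 and −0.11 in cells.

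The cell and EV fold changes of single genes did not run together. Both log2 fold changes were below 0 for 33 of 39 genes, but across the 39 their Pearson r was 0.13 and their Spearman rho −0.15, and TMED2 was the only gene called lower in both. SAR1B, which fell most in cells, was at 138, 91.9 and 158 units in normoxia EVs and 104, 117 and 134 in hypoxia EVs (−0.10, adjusted p = 0.86, limma). These hypoxia EV values averaged 0.79 times the near-silent density for its length, and with that density taken off its difference between the EV and cell responses turned from 0.49 to −5.16. Values under the density were set to 0 in that setting, and SAR1B lay at 0.716, 0.780 and 0.859 times it in the hypoxia EV libraries. The −5.16 therefore rests on values set to 0 and is not an estimate of a change. SEC24D and KDELR3, higher in hypoxia cells, were at −0.13 and 0.49 in EVs, where their conditions overlapped (adjusted p = 0.828 and 0.404, limma). In the hypoxia EV libraries SEC24D was at 1.84, 1.76 and 0.618 times the near-silent density for its length. Most of these EV values had wide errors, with an SE of 0.38 for SAR1B, 0.42 for SEC24D and 0.43 for KDELR3 on the log2 scale, so a change of the size seen in cells was not detectable there.

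The difference of the responses, EVs minus cells, was tested as an interaction over the 12 libraries. It passed for 2 of the 39 genes, TMED2 (−0.86, SE 0.22, adjusted p = 0.0435, limma) and SEC62 (−0.83, SE 0.21, adjusted p = 0.043, limma), both more lowered in EVs. Over all genes 1.87% passed in this direction and 0.443% in the other, and over the coding genes of at least 50 units in cells 3.58% and 0.509%. At an unadjusted p under 0.05, 9 were lower and 0 higher (11.5% and 9.84% of all genes tested). With 1 library left out, 0 members passed for each of the 6 cell libraries, normoxia EV replicate 2 and hypoxia EV replicates 2 and 3. Without normoxia EV replicate 1, hypoxia EV replicate 1 and normoxia EV replicate 3, the counts were 1, 2 and 15. Over all genes tested, 13.3% were lower and 9.57% higher without normoxia EV replicate 3. With equal library totals 0 passed, and edgeR and DESeq2 called 5 lower and 0 higher each. Over all genes tested, edgeR called 6.12% lower and 0.765% higher, and DESeq2 6.86% and 2.15%.

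Paralogues were compared by their share of their family's reads per transcript length, which does not depend on how libraries are scaled. LMAN1 made up 24.0% ± 0.831 of LMAN1 and LMAN2 together in cells but 7.94% ± 2.59 in EVs (SD, 6 libraries each). By an exact two-sided permutation test this gave p = 0.00216, or 0.0146 after adjustment over 27 tests. All 6 EV libraries lay below all 6 cell libraries. SEC24A was 41.7% ± 1.79 of SEC24A and SEC24B in cells and 34.7% ± 3.36 in EVs, also lower in 6 of 6 libraries (exact permutation test, p = 0.00216, adjusted p = 0.0146). COPG1 took 92.8% ± 0.621 of the gamma subunits in cells and 96.2% ± 1.41 in EVs, higher in 6 of 6 (exact permutation test, p = 0.00216, adjusted p = 0.0146).

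The make-up of the KDEL receptor family also differed. KDELR2 fell from 25.5% ± 2.01 of the 3 receptors in cells to 16.2% ± 0.852 in EVs, lower in 6 of 6 libraries (exact permutation test, p = 0.00216, adjusted p = 0.0146). KDELR3 went from 8.30% ± 1.61 to 22.0% ± 9.45, above all cell libraries in 5 of 6 (exact permutation test, p = 0.00649, adjusted p = 0.0351). KDELR1 held 66.2% in cells and 61.7% in EVs, which did not pass (exact permutation test, adjusted p = 0.565). SEC23A was 64.4% ± 2.42 of SEC23A and SEC23B in cells and 51.5% ± 9.46 in EVs, where normoxia EV replicate 1 at 70.1% lay above the cells (exact permutation test, p = 0.0152, adjusted p = 0.0682). The pairs SAR1A with SAR1B and SEC24C with SEC24D did not pass (exact permutation test, adjusted p = 0.735 and 0.621). The near-silent density was not subtracted from these shares. Its part in the shares of members near it in EVs, such as COPG2, SAR1B, SEC24A, SEC24D, KDELR2 and LMAN1, was not tested.

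With 3 libraries against 3, the smallest exact p is 0.1, so no share could pass between conditions. In cells 5 shares were fully apart. SEC24C went from 74.5% ± 0.963 of SEC24C and SEC24D in normoxia to 67.2% ± 2.26 in hypoxia, and SAR1A from 62.7% ± 1.10 to 67.3% ± 2.72 of its pair. KDELR1 went from 69.3% ± 1.20 to 63.2% ± 0.628 of the KDEL receptors, while KDELR2 went from 23.8% ± 0.913 to 27.2% ± 0.469 and KDELR3 from 6.996% ± 0.579 to 9.60% ± 1.04 (SD of 3 libraries, exact permutation test for each, p = 0.1, adjusted p = 0.245). In EVs no share was apart between conditions.

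**Figure D5:**
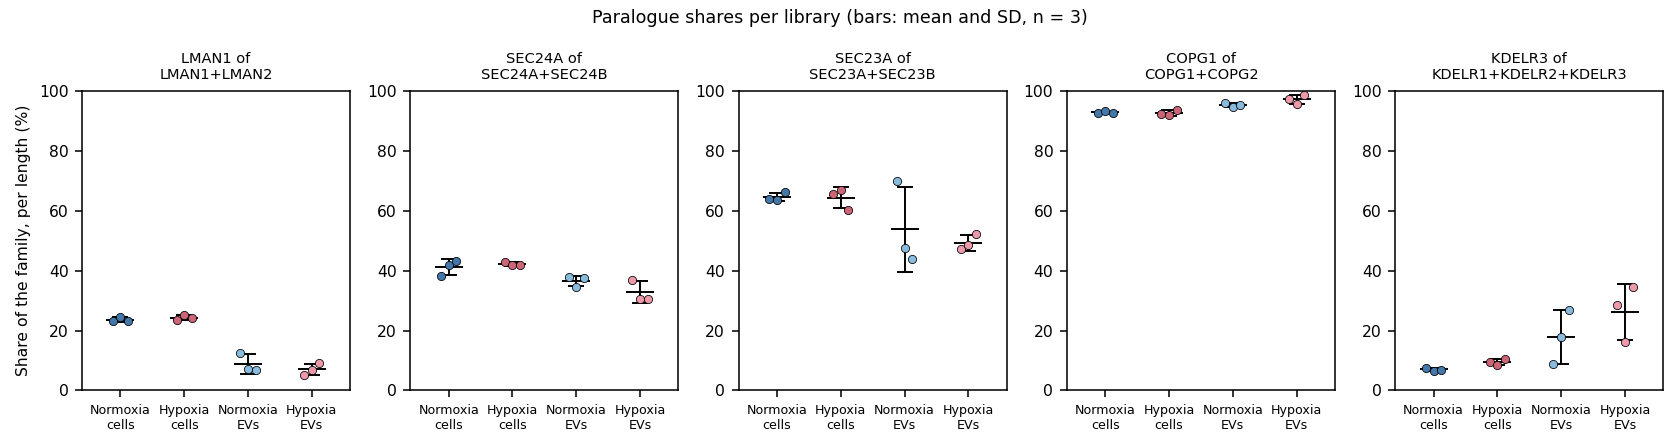
Share of a paralogue family's reads per transcript length, in percent, held by the named gene in each library of the 4 groups (points; bars show the mean and SD of 3 libraries). LMAN1, SEC24A and SEC23A hold smaller shares in EVs than in cells on average, and COPG1 and KDELR3 larger ones.

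Neighbouring machinery was counted from 7 lists of genes that are not among the 40. Over these lists, 33 of 85 genes tested were lower in hypoxia cells (38.8%, against 22.4% of all genes and 32.7% of the coding genes of at least 50 units), and 67 of 86 were lower in EVs than in cells (77.9%, against 31.8% and 60.3%). In hypoxia cells 2 were higher (2.35%, against 8.01% and 8.19%), and in EVs 8 were higher (9.30%, against 43.1% and 15.9%). Of 14 genes for the SRP receptor, the translocon's partners and signal peptidase, 8 were lower in hypoxia cells and 14 lower in EVs than in cells. In cells SRPRB and SRPRA, the receptor for ribosomes that carry a signal peptide, fell by 0.64 and 0.34, and SSR2, a translocon-associated subunit, by 0.35. In EVs SSR3, SPCS3 and SSR1 were at −2.59, −3.06 and −1.80. The list's median was −0.25 in cells and −1.75 in EVs over cells. Of the 12 genes of the oligosaccharyltransferase, which attaches N-glycans as proteins enter, 6 were lower in hypoxia cells (DAD1 −0.46, DDOST −0.31 and STT3B −0.25) and 11 lower in EVs.

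Among 11 coat GTPases and regulators, 4 were lower in hypoxia cells, among them ARFGAP2, a GTPase-activating protein of the COPI coat, at −0.33, and 9 were lower and 1 higher in EVs, with ARF4 and ARF3 at −2.65 and −2.15. Exit site organisers and other cargo receptors had 5 of 11 tested lower in hypoxia cells (ERGIC1 −0.39) and 9 of 12 lower and 1 higher in EVs (TFG −1.91). Of the 15 ER-Golgi tethers and SNAREs, 4 were lower in hypoxia cells (USE1 −0.58) and 10 lower and 1 higher in EVs, with the tether USO1 at −3.02. Of 14 ER chaperones and folding enzymes, 4 were lower and 1 higher in hypoxia cells. HYOU1, a chaperone also named for induction by low oxygen, fell by 0.39, and P4HB, a protein disulfide isomerase, rose by 0.28. In EVs 9 of the 14 were lower and 3 higher, with PDIA3 at −2.44. Of 8 transcription factors of secretory capacity, ATF6 and ATF6B fell by 0.36 and 0.29 in hypoxia cells and CREB3L1 rose by 0.52, while XBP1 did not pass.

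In hypoxia EVs these lists held 12 lower and 1 higher among 86 genes (13.95% lower, against 6.62% of all genes tested and 15.4% of the coding genes of at least 50 units). The higher share was 1.16%, against 5.68% of all genes tested and 1.64% of those coding genes. SSR3 and TRAM1, both partners of the translocon, fell by 1.16 and 1.18, CANX, a lectin chaperone, by 0.95 and TFG by 1.03, and the higher gene was KRTCAP2 (1.58, adjusted p = 0.049, limma). SSR3 (−0.90), RPN1 (−0.81), CANX (−0.85) and P4HB (−0.84) also differed between EVs and cells in their response to hypoxia (limma, adjusted p under 0.05). They were the only genes of the 86 called, 4.65% lower and 0 higher. That is near the 3.58% lower among the coding genes of at least 50 units, with 1.87% lower over all genes tested. The median of EVs over cells lay between −1.75 and −0.39 for the 7 lists, against −0.66 for the coding genes averaging 50 units or more in cells.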

How the data were processed

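The deposited table holds 1 signal value per gene and library, which is a read count that the authors divided by a library's own factor. This was read from the values, since all were whole multiples of a step (100% within 0.01), and dividing by it gave the reads. The builds hg38 and GRCh38 stand in the submitters' processing notes beside DESeq2 1.30.1 and Bowtie 0.12.2. No label names the counter, the annotation or a strand setting, so values of overlapping genes, paralogues and genes with pseudogenes are uncertain. IDs were matched to GENCODE 29 (52338 of 57773, with 9.41% unmatched). Lengths and GC content are those of 1 representative transcript per gene.

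Main results come from limma-trend (version 3.58.1 under R 4.3.3) on log2(value + 1), for genes averaging 10 units or more over the fitted libraries, with Benjamini-Hochberg adjustment over all genes and a threshold of 0.05. Fold changes are on that scale, which understates changes of low genes. Hypoxia was compared within the 6 cell and the 6 EV libraries. EVs against cells, and the difference of the responses, used all 12. Recovered reads were also tested with edgeR 4.0.16 and DESeq2 1.42.0. Other settings were pseudocounts of 0.5 and 5, a filter of 50 or none, TMM, equal totals, upper quartile scaling, the near-silent density removed, the replicate number as a block, each library left out, and fits on other sets of libraries. Where the density removed was larger than a value, the value was set to 0. The scripts were tested on simulated data.

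Per-library values are given for up to 6 members higher and 6 lower per comparison, past the threshold and without overlap, by the largest absolute log2 fold change less 1.96 SE. To these come the paralogue pairs, up to 3 genes with the smallest p of each other list, and VEGFA, SLC2A1, EIF4E, YTHDF1 and CD9 as checks. A gene of the other lists that this rule names is not reported here. The other genes named were chosen after their values were seen. The 40 genes and all lists were chosen with earlier results of these data known. Depth limits the EV values: a count of 0 allows up to 3 reads, a floor that covers counting error only. The 95% intervals of fold changes are 1.96 SE of the limma fit to each side and come from the spread among libraries.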

Additional observations from a re-analysis of the deposited data

Results flagged for a closer look

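TMED2 and SEC62 are given here because their response to hypoxia differed between EVs and cells by the interaction test. For TMED2 the difference, EVs minus cells, was −0.86 on the log2 scale, from −0.21 in cells and −1.07 in EVs. For SEC62 it was −0.83, from −0.11 and −0.94. In both genes all 3 hypoxia EV libraries lay below all 3 normoxia EV libraries. The density of reads over near-silent genes moved with the EV conditions, at 10.4 units per kb after normoxia and 22.5 after hypoxia, and its part in these differences was not tested. With that density taken off, 6 members passed the same test, with 1921 of 17125 genes lower (11.2%, against 1.87% as deposited). Neither gene passed with equal library totals, with upper quartile scaling, with no filter, with the replicate block or without any one of the 6 cell libraries, where 0 members passed.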

How the results depend on the processing

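In hypoxia cells, 2 members were higher and 19 lower. The higher count was 1 with no filter, 4 with equal library totals, 0 with upper quartile scaling, 0 in the fit of all 12 libraries, and 1 to 2 with 1 library left out. Over all genes tested the higher share was 8.01% in the main fit, 2.18% with no filter and 13.3% with equal totals. It was 3.71% with upper quartile scaling, 0.244% in the fit of all 12 libraries, and 5.89% to 6.88% with 1 library left out. The lower count was 5 with equal totals, 33 with upper quartile scaling, 9 by edgeR, 8 by DESeq2, 0 in the fit of all 12 libraries (where cells and EVs share 1 estimate of spread), and 16 to 20 with 1 library left out. Over all genes tested the lower share was 22.4% in the main fit, 11.8% with equal totals and 34.8% with upper quartile scaling. It was 15.1% by edgeR, 14.6% by DESeq2, 0.103% in the fit of all 12 libraries, and 17.9% to 20.4% with 1 library left out. In hypoxia EVs, 5 were lower. That count was 8 with a pseudocount of 5, 8 with a filter of 50, 3 with no filter, 14 with TMM factors, 1 with equal totals, 23 with upper quartile scaling, 11 with the near-silent density removed, 8 by edgeR, 13 by DESeq2, 22 in the fit of all 12 libraries, and 0 to 17 with 1 library left out. Over all genes tested the lower share was 6.62% in the main fit and 8.48% with a pseudocount of 5. It was 15.6% with a filter of 50, 2.80% with no filter, 12.3% with TMM factors and 0.645% with equal totals. It was 20.1% with upper quartile scaling, 19.1% with the density removed, 8.88% by edgeR and 10.7% by DESeq2. The fit of all 12 libraries gave 18.3%, and fits with 1 library left out gave 0.0243% to 14.1%. Of EVs against cells, the lower count ran from 33 to 38 over all settings tried, and the lower share of all genes tested from 16.9% to 53.8%. The higher count, TMED1 alone, was 0 with TMM factors, 0 with upper quartile scaling (−0.31), 0 with the density removed and 0 in the hypoxia libraries alone. Over all genes tested the higher share in these settings was 34.6%, 23.9%, 22.4% and 48.2%, in that order. The difference of the responses passed for 2. It passed for 0 with no filter, 5 with TMM factors, 0 with equal totals, 0 with upper quartile scaling, 6 with the density removed, 5 by edgeR, 5 by DESeq2, and 0 to 15 with 1 library left out. Over all genes tested the lower share was 1.87% in the main fit, 0.163% with no filter and 6.94% with TMM factors. It was 0.605% with equal totals, 0.274% with upper quartile scaling and 11.2% with the density removed. It was 6.12% by edgeR, 6.86% by DESeq2, and 0.138% to 13.3% with 1 library left out. With the density removed the difference of the responses turned to −5.16 for SAR1B, which lay under that density in hypoxia EVs and was set to 0 there. The cause of the other changes was not tested.

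No pairing by replicate number was seen: the 18 correlations of deviations between libraries of the same number ran from −0.14 to 0.09 over 10750 genes. Those between different numbers ran from −0.12 to 0.14. With 3 libraries per group this cannot tell whether libraries of the same number came from 1 culture. With the replicate number as a block, hypoxia EVs had 10 lower members and the difference of the responses 0, and the other counts stayed within 1.5 times. Over all genes tested, 9.44% were lower in hypoxia EVs with this block, and 1.15% were lower by the difference of the responses.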
